A study of Mus musculus with 40 samples.

Results

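The genes described here are 38 mouse genes of the endoplasmic reticulum (ER) that fold secreted proteins or answer to their misfolding. They were taken by gene symbol from a list of ATF6, XBP1 and ER folding genes, chosen with earlier results of these data known. The count table held 51789 genes, of which 27946 had at least 1 count. By role, 7 are stress sensors and transcription factors, 12 are chaperones and co-chaperones, 5 are disulfide isomerases, 8 act in ER-associated degradation (ERAD) and 6 act in translocation into the ER or export from it. Derl3, an ERAD gene, had no count in any library, and the other 37 members passed the filter on low counts and were tested in every comparison.

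The study asked what Bmal1, a transcription factor of the circadian clock, does in mouse melanoma cell lines, with 40 cultured-cell libraries in 20 groups of 2. B16-F10 cells were a Bmal1 knockout (KO) and a control (Ctrl), each a clone. YUMM2.1, YUMM1.7 and aC3 cells carried an empty vector (EV), wild-type Bmal1 (WT-Bmal1) or dHLH-Bmal1, which lacks the domain that binds DNA, so the EV, WT-Bmal1 and dHLH-Bmal1 groups of a line share the transduction. aC3 is 1 Bmal1 KO clone of YUMM2.1, and the YUMM2.1 and aC3 cells were sorted for GFP after lentiviral transduction. YUMM2.1 cells of each vector also received a scramble hairpin (shNC) or 1 of 2 hairpins to Myh9, the heavy chain of non-muscle myosin IIA, named shMyh9#2 and shMyh9#4, and all hairpin lines were selected with puromycin. The study's text describes the libraries of a group as biological replicates, and the labels do not say how each culture was made, so the p-values measure the spread between these libraries.

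Proteins that enter the ER are bound by chaperones such as Hspa5 (BiP) and are joined by disulfide bonds with the help of isomerases. When unfolded protein builds up, 3 sensors in the ER membrane respond: Atf6, which is cut to release a transcription factor, Ern1 (IRE1), which splices the Xbp1 transcript, and Eif2ak3 (PERK), which slows translation and raises Atf4. Cleaved ATF6 and spliced XBP1 raise chaperone and ERAD genes, and the ERAD machinery, including Herpud1, Sel1l and the ubiquitin ligase Syvn1, returns misfolded protein to the cytosol for degradation. Xbp1 splicing, Atf6 cleavage and Eif2ak3 activity are not read by a count of transcript 3′ ends, so the values below are transcript levels.

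ATF6 and XBP1 act through short promoter elements, shown here as a sequence feature that some of the members share. They were searched in RefSeq promoter windows of GRCm38.p6, from 250 bases before to 50 after each start, on both strands, and 32 of the 38 members had a window. No window was at hand for Atf6, Manf, Hyou1, Derl1, Sec61a1 and Hspa13. The ER stress response element (ERSE), spelled CCAAT and CCACG with any 9 bases between them, was found in 9 members, 28.1% of those with a window, against 0.137% of 27025 genes. In the lines below the element is in capitals with 5 flanking bases on each side, written 5′ to 3′ on the strand of the gene.
Hspa5 at chr2:34772020-34772048 (+): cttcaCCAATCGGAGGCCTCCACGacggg
Hsp90b1 at chr10:86705633-86705661 (-): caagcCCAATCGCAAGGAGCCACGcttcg
Pdia6 at chr12:17266486-17266514 (+): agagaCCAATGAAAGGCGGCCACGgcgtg
Canx at chr11:50325795-50325823 (-): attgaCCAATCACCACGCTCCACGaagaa
Dnajc3 at chr14:118937822-118937850 (+): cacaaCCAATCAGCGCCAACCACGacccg
Syvn1 at chr19:6046527-6046555 (+): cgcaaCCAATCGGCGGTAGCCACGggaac
In Calr, Creld2, Derl3 and at another site of Hsp90b1 the element ran on the opposite strand, so its complement is read below.
Calr at chr8:84847070-84847098 (-): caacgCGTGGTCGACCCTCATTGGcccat
Creld2 at chr15:88819515-88819543 (+): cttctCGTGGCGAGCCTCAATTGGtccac
Derl3 at chr10:75893237-75893265 (+): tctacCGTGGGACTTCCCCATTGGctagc
Hsp90b1 at chr10:86705528-86705556 (-): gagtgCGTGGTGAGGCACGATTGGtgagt
The 10 ERSE sites lay 25 to 193 bases before the start, with a median of 97.5. The shorter ERSE-II, ATTGG and CCACG with any 1 base between them, was in the windows of Herpud1 and Dnajb11, 6.25% of members against 0.0444% of genes. The XBP1 core letters TGACGTGG were in Sec24d and Txndc5, 6.25% of members against 0.714% of genes.
Herpud1 at chr8:94386372-94386392 (+): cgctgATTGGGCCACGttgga
Dnajb11 at chr16:22857847-22857867 (+): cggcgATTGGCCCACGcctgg
Sec24d at chr3:123267465-123267482 (+): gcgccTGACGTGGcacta
Txndc5 at chr13:38528040-38528057 (-): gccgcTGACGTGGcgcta
Together, 13 of 32 members held at least 1 of these 3 elements, which is 40.6% against 0.884% of all genes. The E-box CACGTG, the letters that Bmal1 with Clock binds, was in 5 members (Calr, Dnajb9, Derl3, Ssr1 and Txndc5), 15.6% against 8.09% of genes. The cyclic AMP response element TGACGTCA was in no member window and in 2.03% of genes. A match of letters is a description of these windows and not a measured binding site, and genes with these letters include genes the list was drawn up to hold.

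Total counts ranged from 3643332 to 22970049 per library (median 10021164.5), with the lowest in YUMM2.1 dHLH-Bmal1 shMyh9#4 replicate 1. Values are CPM, counts scaled to a common library size with TMM factors over all 40 libraries. Each transcript gives its tag at the 3′ end, so transcript length does not enter, and levels of different genes are compared as tags. Myh9 checked the hairpin labels: in YUMM2.1 EV it was 703 and 665 CPM with shNC, 229 and 248 with shMyh9#2 and 492 and 465 with shMyh9#4, and no Myh9 hairpin library overlapped its shNC pair in any of the 3 vectors. Arntl, the gene of Bmal1, was at 15.2 and 10.7 CPM in B16-F10 Ctrl and at 13.3 and 11.5 in the KO (log2 difference -0.07, adjusted p = 0.923), but 3′ tags need not lie in an edited or introduced sequence and so do not check those labels. The labels of 1 pair of YUMM2.1 libraries were in doubt. When 8 libraries were matched to labelled columns of gene values that accompany the paper, each had 1 column with the same relative values over the genes shared. For 6 it was the column of their own label, while YUMM2.1 EV replicate 2 and YUMM2.1 WT-Bmal1 replicate 1 each had the other's, so YUMM2.1 results are given as labelled and with these labels exchanged. The melanocyte genes Tyrp1 and Mlana were at 0 CPM in every YUMM2.1, YUMM1.7 and aC3 library and between 821 and 2052 CPM in B16-F10. Not every melanocytic marker was absent there. Sox10 was at 501 and 484 CPM in YUMM2.1 EV, 452 and 441 in aC3 EV, 1.51 and 1.12 in YUMM1.7 EV and 367 and 385 in B16-F10 Ctrl. Mitf was at 14.4 and 14.2 CPM in YUMM2.1 EV and 863 and 790 in B16-F10 Ctrl. Epcam was at 0 in all 40 libraries.

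The members took between 0.514% and 1.04% of a library's counts. The ER chaperones Hspa5, Hsp90b1 (GRP94) and Calr (calreticulin) had medians over 500 CPM across the 20 groups, 12 members lay between 100 and 500, 12 between 20 and 100 and 11 under 20. Group means of Hspa5 ran from 771 CPM in aC3 WT-Bmal1 to 1889 in B16-F10 Bmal1 KO, with a median of 1132. The sensors were scarce: the median of Atf6 was 54.2 CPM, and Eif2ak3 and Ern1 were among the members under 20. Some members were held in a narrow range, and the ratio of the highest to the lowest group mean was 1.40 for Sel1l, the adaptor of the ERAD ligase, 1.52 for P4hb (protein disulfide isomerase) and 1.55 for Derl2, an ERAD channel protein. Others spread widely, with ratios of 26.7 for Syvn1, 12.7 for Xbp1, 11.3 for Pdia4, 11.1 for Sdf2l1 and 9.79 for Ern1. Herpud1 ran from 19.3 CPM in aC3 dHLH-Bmal1 to 130 in B16-F10 Ctrl, a ratio of 6.73, and Atf6 from 30.6 in B16-F10 Bmal1 KO to 83.1 in YUMM2.1 dHLH-Bmal1 shMyh9#4, a ratio of 2.72.

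**Figure D1:**
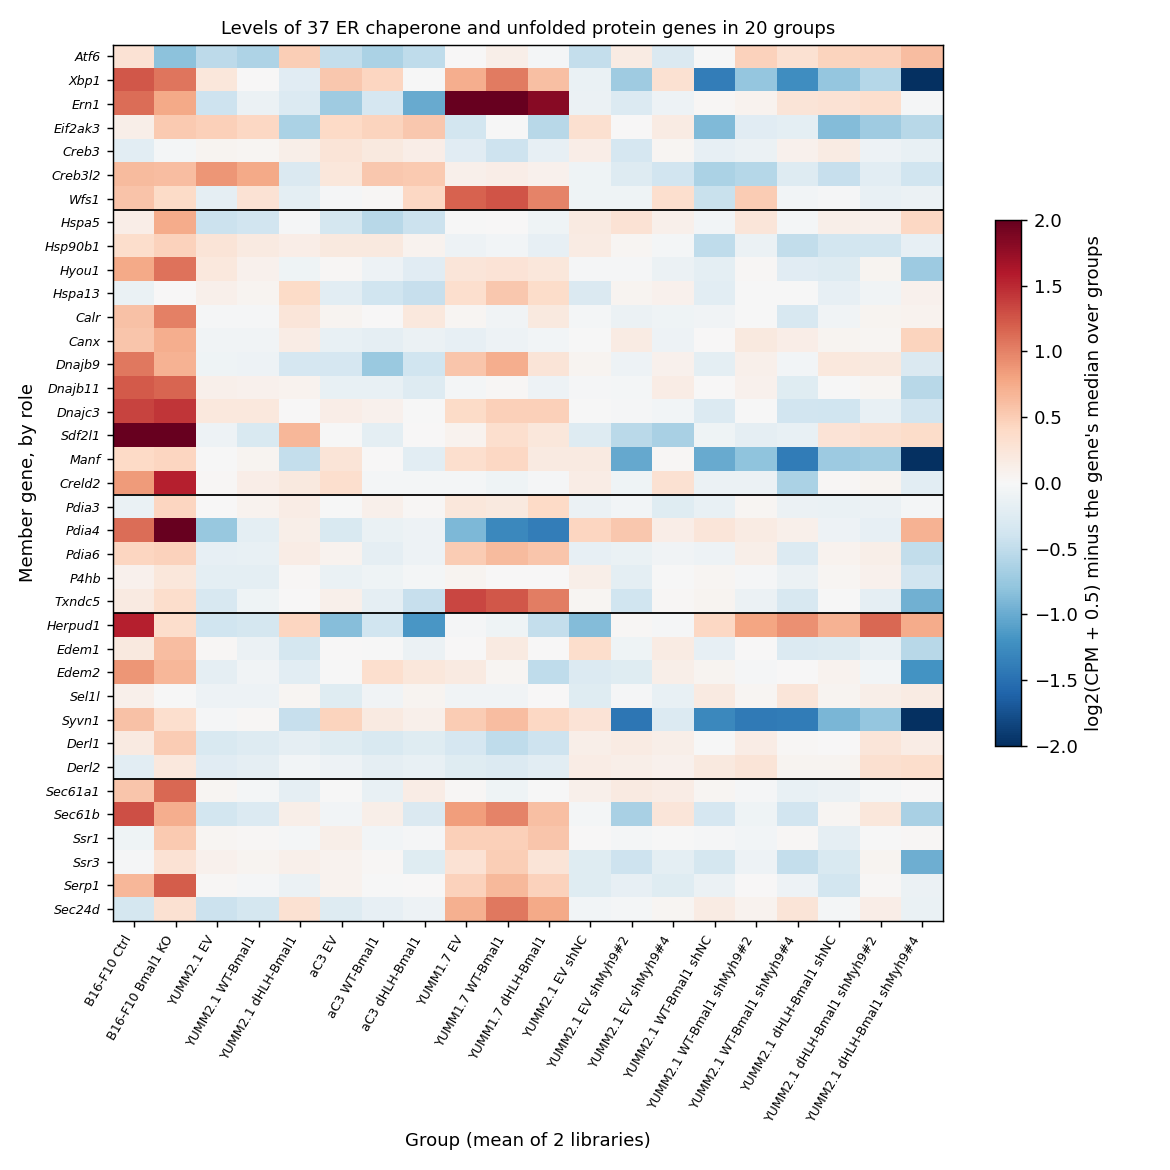
Heat map of the 37 detected members (rows, by role) in the 20 groups (columns). Colour is log2(CPM + 0.5) of the group mean minus the gene's median over the groups. The 2 B16-F10 columns stand out for high Sdf2l1 and Pdia4. Xbp1, Manf and Syvn1 are low in the YUMM2.1 hairpin columns with WT-Bmal1 and dHLH-Bmal1 and also in YUMM2.1 EV shMyh9#2.

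Before the comparisons, the spread within pairs of libraries sets what can be read. In all, 6 members, picked after their values were seen, moved together between the libraries of the same group: Manf, Syvn1, Xbp1, Ssr3, Sec61b and Txndc5. Over the 20 groups, the replicate differences (log2) of any pair of these 6 correlated with r from 0.71 to 0.93 (median 0.85, 15 pairs). For all 666 pairs of members the median was 0.05. Because the 6 were picked from these values, this gap is a description and not a test. The 6 were not all that correlated in this way, and Pdia6, for 1, correlated with each of them by 0.814 to 0.885. Pdia4, a disulfide isomerase, went the other way, with r of -0.71 to -0.47 with the 6. Other members went against the 6 too, among them Calr (-0.873 to -0.738), Canx (-0.884 to -0.697) and Hspa5 (-0.831 to -0.589). The points share libraries, and their group means correlated too, with r from 0.66 to 0.98. In B16-F10 Bmal1 KO, 5 members differed by over 1 log2 unit between the pair (Xbp1, Pdia4, Manf, Syvn1 and Sec61b), where 11.2% of genes did. In YUMM2.1 dHLH-Bmal1 it was 4 members and 5.8% of genes, in YUMM2.1 EV 2 members and 6.46%, and in each of the aC3 and YUMM1.7 groups no member. Manf overlaps 4 annotated genes and Syvn1 overlaps 2, and whether counting used strand is not given in the sources used here, while Xbp1 overlaps none.

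**Figure D2:**
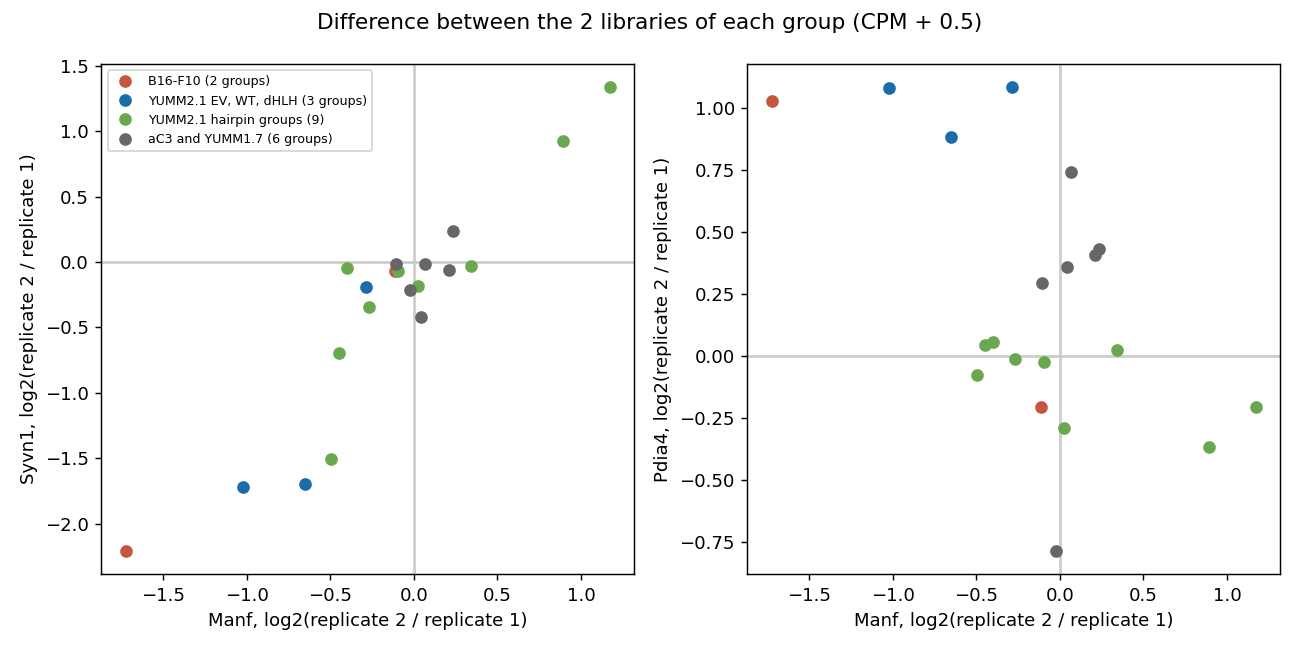
Each point is 1 of the 20 groups, plotted by the log2 difference of replicate 2 from replicate 1 of Manf (horizontal) against Syvn1 (left) and Pdia4 (right). Manf and Syvn1 rise together, while Pdia4 is high where Manf is low, and the B16-F10 Bmal1 KO pair lies farthest out.

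The comparison of dHLH-Bmal1 with EV in YUMM2.1 asked what a Bmal1 that cannot bind DNA changes in cells with their own Bmal1. With it Atf6 and Herpud1 rose and Eif2ak3 fell, as did Creb3l2, a membrane-bound transcription factor of the ATF6 kind. Those 4 of 37 members passed an adjusted p of 0.05 (edgeR, quasi-likelihood, Benjamini-Hochberg), where 13.2% of all genes tested passed, 6.51% higher and 6.72% lower, and the members' median log2 fold change was 0.14 against -0.01 for all genes. Of the 7 melanocytic markers, Sox10, a lineage transcription factor, moved with the same contrast, from 501 and 484 CPM to 66.2 and 72.9 (log2 -2.82, SE 0.16, adjusted p = 0.000621), and its part in the changes of the ER genes was not tested.

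Atf6 was at 37.01 and 38.5 CPM in YUMM2.1 EV and at 80.2 and 72.3 in dHLH-Bmal1. The pairs did not overlap, and the log2 fold change was 1.02 (SE 0.14, adjusted p = 0.00595). Creb3l2 was at 76.7 and 72.1 CPM with EV and 31.0 and 34.2 with dHLH-Bmal1 (log2 -1.19, SE 0.13, adjusted p = 0.00334), again without overlap. These changes of Atf6 and Creb3l2 passed under all 11 alternatives run, among them each library left out in turn.
Eif2ak3 was at 15.9 and 11 CPM with EV and 5.11 and 6.77 with dHLH-Bmal1, 2.27-fold lower (log2 -1.19, SE 0.28, adjusted p = 0.0341). Herpud1 was at 36.3 and 30.3 CPM with EV and 66.8 and 52.1 with dHLH-Bmal1 (log2 0.84, SE 0.18, adjusted p = 0.0242). For both genes the pairs stood apart, but each call was lost in 3 of the 4 fits that left out 1 library, and for both genes these included the fits without dHLH-Bmal1 replicate 1 and without EV replicate 1. The count of 4 fell to 2 without either of these.

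As labelled, Xbp1, Ern1 and the chaperones and isomerases of the list did not pass. Xbp1 was at 33.0 and 12.6 CPM with EV and 21.4 and 11.8 with dHLH-Bmal1, so the pairs overlapped (log2 -0.46, SE 0.50, adjusted p = 0.599). Ern1 was at 4.81 and 4.31 CPM against 4.54 and 5.59 (log2 0.15, adjusted p = 0.782). Hspa5 was at 786 and 904 CPM against 943 and 1280, higher in both dHLH-Bmal1 libraries with a log2 difference of 0.40 (SE 0.17, adjusted p = 0.18). None of the 12 chaperones and none of the 5 isomerases passed, and their median log2 differences were 0.08 and 0.31.
With the replicate number as a block, 9 members passed, 6 higher and 3 lower, where 27.1% of genes did, and they included the 4 above. The added members were Hspa5 (log2 0.39, adjusted p = 0.0144), Pdia4 (0.86, adjusted p = 0.000231), Sdf2l1, an ER protein that works with Hspa5 (0.81, adjusted p = 0.0251), Sec24d, a cargo adaptor of export vesicles (0.76, adjusted p = 0.0167), and Manf, a secreted ER stress protein (-0.49, adjusted p = 0.0409).
With the doubtful labels exchanged, 9 members passed, 7 higher and 2 lower, where 28.7% of genes did. The log2 fold changes were then 1.12 for Atf6 (adjusted p = 0.000265), 0.76 for Herpud1 (adjusted p = 0.00605), 0.47 for Hspa5 (adjusted p = 0.0376), 1.17 for Pdia4 (adjusted p = 0.0327) and 1.00 for Sdf2l1 (adjusted p = 0.0107). Eif2ak3 and Creb3l2 stayed lower, at -1.28 and -1.15.

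WT-Bmal1 against EV in YUMM2.1 gave no call among the 37 members with edgeR, none with DESeq2's Wald test, and none at an unadjusted p under 0.05, and 0% of all genes passed. The members' log2 differences had a median of -0.002, with 17 above 0 and 20 below. Atf6 was at 33.4 and 37.1 CPM with WT-Bmal1, overlapping the EV pair (log2 -0.10). Herpud1 was at 33.9 and 34.3 CPM (log2 0.03), Hspa5 at 823 and 915 (log2 0.04) and Xbp1 at 24.4 and 14.6 (log2 -0.24), all inside the EV range or overlapping it. Ern1 was at 5.13 and 6.28 CPM (log2 0.31) and Eif2ak3 at 12.7 and 13.0 (log2 -0.08), and every adjusted p was 1. With the labels exchanged, again no member passed, where 0.705% of genes did.

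**Figure D3:**
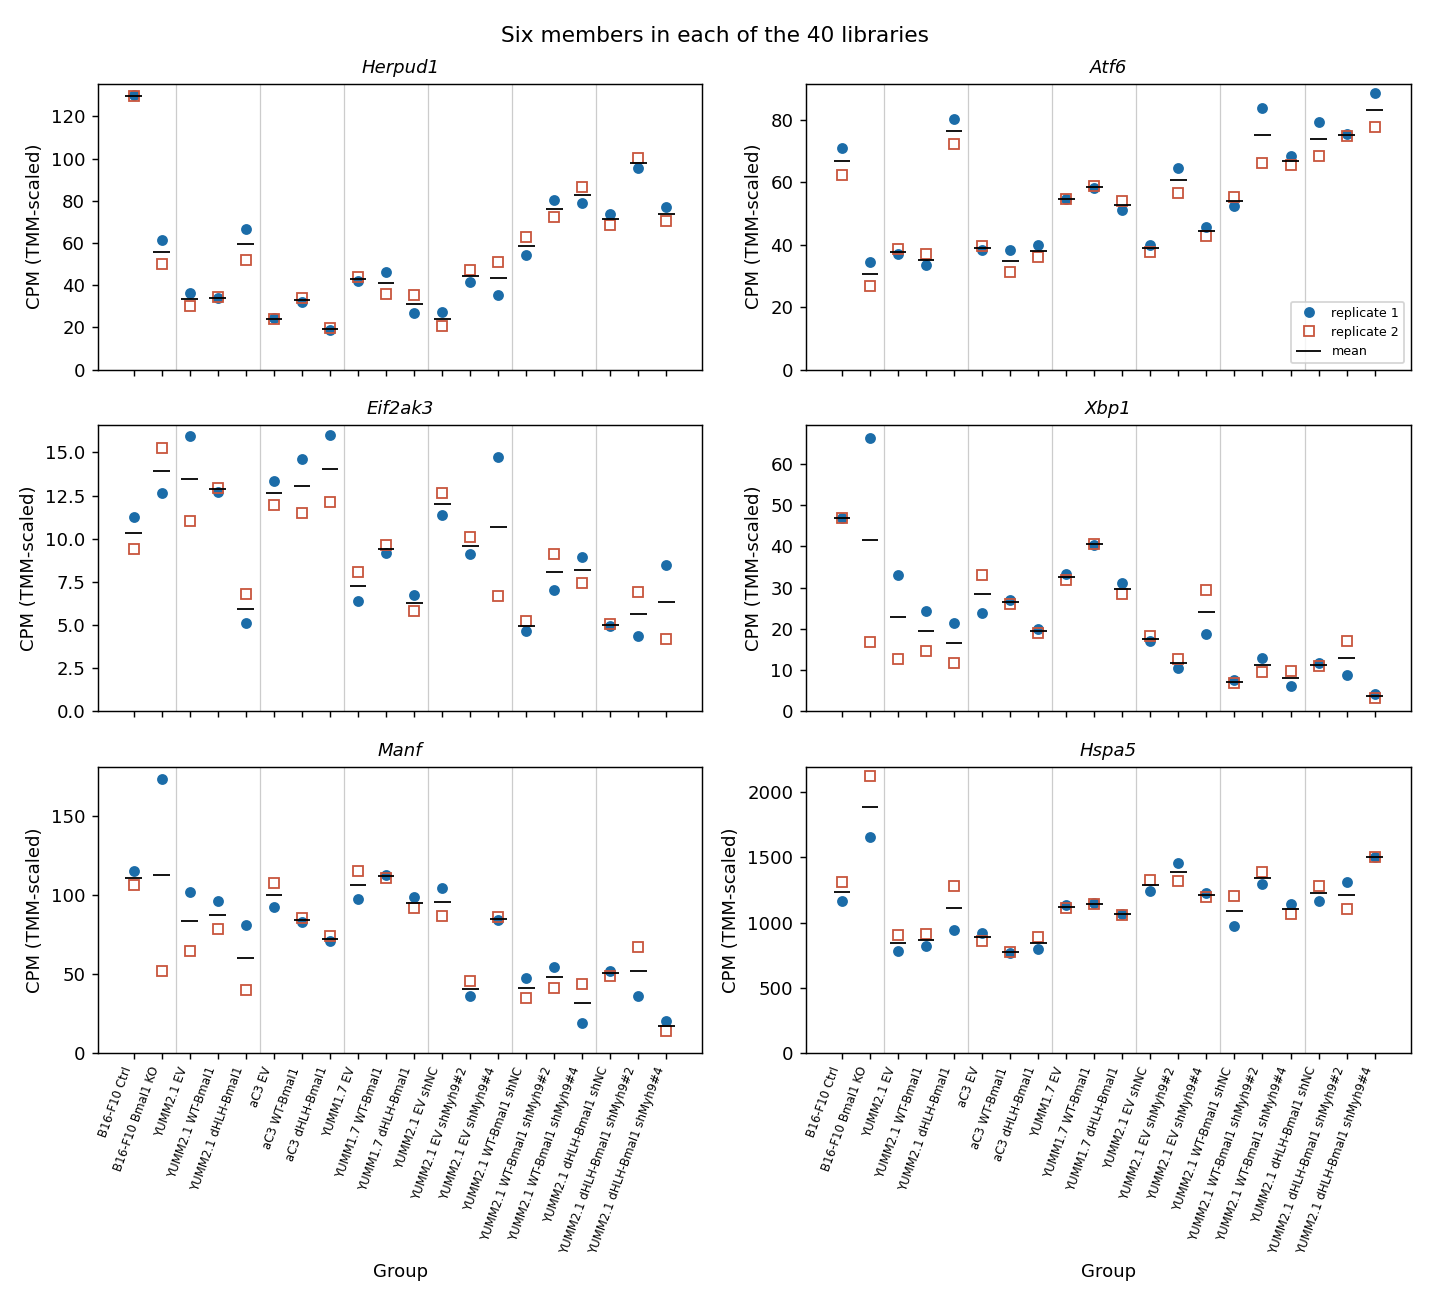
CPM of Herpud1, Atf6, Eif2ak3, Xbp1, Manf and Hspa5 in each of the 40 libraries, by group, with points for the libraries and a bar for the mean of each pair. Herpud1 is highest in B16-F10 Ctrl, Atf6 and Herpud1 are also high in YUMM2.1 dHLH-Bmal1 with and without hairpins and in WT-Bmal1 with a Myh9 hairpin, and Eif2ak3 is lowest in YUMM2.1 WT-Bmal1 shNC (mean 4.93 CPM) and dHLH-Bmal1 shNC (4.98).

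In the aC3 clone, which lacks endogenous Bmal1, the vectors moved other members. Herpud1 was at 24.4 and 23.8 CPM with EV, 32.1 and 33.9 in WT-Bmal1 and 18.9 and 19.7 in dHLH-Bmal1, so the 3 pairs did not overlap. WT-Bmal1 was 1.37-fold above EV (log2 0.45, SE 0.12, adjusted p = 0.0246) and 1.72-fold above dHLH-Bmal1 (log2 0.79, SE 0.12, adjusted p = 0.0059). Herpud1 was the only member of 37 called in each of these comparisons, where 11.2% of genes passed against EV (4.92% higher) and 0.877% against dHLH-Bmal1 (0.442% higher). The call against EV was lost in each of the 4 fits that left out 1 library, and that against dHLH-Bmal1 without either WT-Bmal1 library. Without dHLH-Bmal1 replicate 2, 4 members passed between WT-Bmal1 and dHLH-Bmal1. The difference of dHLH-Bmal1 from EV for Herpud1, -0.34, did not pass (SE 0.12, adjusted p = 0.099). Sox10 was at 452 and 441 CPM with EV, 547 and 552 in WT-Bmal1 (log2 0.30, adjusted p = 0.0389) and 610 and 551 in dHLH-Bmal1 (log2 0.37, adjusted p = 0.0147), and its part in the aC3 results was not tested.

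With dHLH-Bmal1 in aC3, 4 members fell, where 10.9% of genes passed and 6.09% were lower. Xbp1, the transcription factor of the IRE1 arm, was at 23.9 and 33.2 CPM with EV and 20 and 18.9 with dHLH-Bmal1 (log2 -0.56, SE 0.15, adjusted p = 0.0304). Manf was at 92.4 and 107 CPM against 70.6 and 73.9 (log2 -0.48, SE 0.10, adjusted p = 0.00624). Txndc5, a disulfide isomerase, was at 27.2 and 29.6 CPM against 20.1 and 18.1 (log2 -0.58, SE 0.13, adjusted p = 0.0106).
Ssr3, a subunit of the translocon-associated complex, was at 159 in both EV libraries and at 118 and 138 with dHLH-Bmal1 (log2 -0.33, SE 0.09, adjusted p = 0.0345). All 4 belong to the 6 members that moved together within pairs of libraries. The count of 4 went to 0 without EV replicate 2, which held the higher Xbp1 and Manf value.
The remaining sensors did not pass in either aC3 comparison with EV. Atf6 was at 38.4 and 39.7 CPM with EV, 38.3 and 31.4 in WT-Bmal1 and 39.8 and 36.1 in dHLH-Bmal1. Its dHLH-Bmal1 pair overlapped EV, while both WT-Bmal1 values lay below EV, 1 of them narrowly. Ern1 was at 2.95 and 4.26 CPM with EV, 4.72 and 4.93 in WT-Bmal1 and 3.24 and 2.47 in dHLH-Bmal1. Eif2ak3 was at 13.3 and 11.96 CPM with EV, at 14.6 and 11.5 in WT-Bmal1 and at 15.98 and 12.1 in dHLH-Bmal1, and Xbp1 with WT-Bmal1 was at 27.0 and 26.1. Hspa5 was at 921 and 859 CPM with EV, 765 and 777 in WT-Bmal1 and 793 and 890 in dHLH-Bmal1, lower than EV in both WT-Bmal1 libraries without a call.

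In YUMM1.7, no member passed with either vector, where 0.138% of genes did with WT-Bmal1 and 0.63% with dHLH-Bmal1. At an unadjusted p under 0.05 there were 9 and 8 members, but the share of all genes at that cutoff was not counted. DESeq2's Wald test called 0 and 1. Herpud1 was at 42.1 and 43.7 CPM with EV, 46.2 and 35.9 in WT-Bmal1 and 27.1 and 35.6 in dHLH-Bmal1, and both dHLH-Bmal1 libraries lay below EV (log2 -0.44, SE 0.13, adjusted p = 0.208). Atf6 stayed between 51.1 and 58.9 CPM in all 6 YUMM1.7 libraries. Hspa5 stayed between 1059 and 1147 CPM and Creb3l2 between 41.0 and 46.7. Leaving out WT-Bmal1 replicate 1 gave 1 call with WT-Bmal1.

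The dHLH-Bmal1 effect was tested between lines as a difference of log2 fold changes in a fit of all 40 libraries. Against YUMM2.1, the aC3 effect was lower for Atf6 (difference -1.05, SE 0.19, adjusted p = 0.000208), lower for Herpud1 (-1.16, SE 0.24, adjusted p = 0.00134), and higher for Creb3l2 (1.49, SE 0.19, adjusted p = 2.88e-06) and Eif2ak3 (1.35, SE 0.41, adjusted p = 0.0309). Those were 4 of 37 members, where 11.6% of genes passed, 6.55% higher and 5% lower. The YUMM1.7 effect also differed from that of YUMM2.1, by -1.07 for Atf6 (SE 0.18, adjusted p = 0.000223), -1.29 for Herpud1 (SE 0.24, adjusted p = 0.000443) and 1.16 for Creb3l2 (SE 0.19, adjusted p = 0.00015). That was 3 of 37 members, where 9.42% of genes passed (4.04% higher, 5.38% lower), and 5 without YUMM2.1 dHLH-Bmal1 replicate 1. Both differences rest on the same 4 YUMM2.1 libraries. The differences of Atf6, Herpud1 and Creb3l2 passed in every one of 12 alternatives for both lines, the exchange of labels included, while Eif2ak3 lost its call in 5 fits that left out 1 library. With labels exchanged the counts were 6 and 5, adding Hspa5 (-0.55 in aC3, -0.54 in YUMM1.7), Hspa13, an ER-resident HSP70 relative (-0.71 in aC3), and Pdia4 (-1.64 in YUMM1.7).

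In the hairpin experiment, WT-Bmal1 and dHLH-Bmal1 were compared with EV in cells with the scramble hairpin, in other libraries than those above but sharing the EV shNC pair with each other. With either vector Herpud1, Atf6 and Sel1l rose and Eif2ak3, Hsp90b1, Manf, Edem1 and Syvn1 fell. In each case 10 of 37 members passed, 3 higher and 7 lower, where 22.3% of genes passed for WT-Bmal1 (11.7% higher, 10.6% lower) and 26.4% for dHLH-Bmal1 (13.9% higher, 12.5% lower), against 27.0% of members. Markers moved with these contrasts as well, and their part in the results was not tested. Sox10 was at 330 and 334 CPM in EV shNC, 98.7 and 99.8 with WT-Bmal1, 22.7 and 26.1 with dHLH-Bmal1 and 191 and 181 in EV shMyh9#2. Of 2 endothelial markers, Cdh5 was at 3.58 and 2.13 CPM in EV shNC, 12.9 and 11.8 with WT-Bmal1, 8.06 and 7.95 with dHLH-Bmal1 and 8.96 and 11.2 in EV shMyh9#2, while Pecam1 stayed between 5.49 and 9.48.

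Herpud1 was at 27.1 and 20.6 CPM in EV shNC, 54.4 and 63.0 in WT-Bmal1 shNC and 73.7 and 68.8 in dHLH-Bmal1 shNC. It was 2.47-fold higher with WT-Bmal1 (log2 1.30, SE 0.16, adjusted p = 1.77e-05) and 3.01-fold higher with dHLH-Bmal1 (log2 1.59, SE 0.16, adjusted p = 9.94e-07), with no overlap and a call in all 10 alternatives for both.
Atf6 was at 39.96 and 37.7 CPM in EV shNC, 52.5 and 55.3 in WT-Bmal1 and 79.4 and 68.4 in dHLH-Bmal1. The log2 fold changes were 0.48 (SE 0.13, adjusted p = 0.0151) and 0.94 (SE 0.13, adjusted p = 3.39e-05). The dHLH-Bmal1 call held in all 10 alternatives and the WT-Bmal1 call was lost without WT-Bmal1 shNC replicate 2 and without either EV shNC library.
Sel1l was at 99.4 and 105 CPM in EV shNC, 135 and 137 with WT-Bmal1 (log2 0.42, SE 0.09, adjusted p = 0.00233) and 128 and 123 with dHLH-Bmal1 (log2 0.30, SE 0.09, adjusted p = 0.0172). The call with WT-Bmal1 held in all 10 alternatives and that with dHLH-Bmal1 in none of the 4 that left out 1 library.

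Among the members that fell, Hsp90b1 was at 1043 and 1065 CPM in EV shNC, 701 and 623 with WT-Bmal1 (log2 -0.67, SE 0.10, adjusted p = 6.97e-05) and 748 and 703 with dHLH-Bmal1 (log2 -0.53, SE 0.10, adjusted p = 0.000443). The chaperone was lower in all 4 libraries and passed in all 10 alternatives for both vectors. Eif2ak3 was at 11.4 and 12.7 CPM in EV shNC, 4.62 and 5.23 with WT-Bmal1 (log2 -1.28, SE 0.36, adjusted p = 0.0167) and 4.93 and 5.03 with dHLH-Bmal1 (log2 -1.26, SE 0.36, adjusted p = 0.0143).
Syvn1 was at 18.6 and 14.6 CPM in EV shNC, 6.66 and 3.92 with WT-Bmal1 (log2 -1.65, SE 0.41, adjusted p = 0.00779) and 7.15 and 6.81 with dHLH-Bmal1 (log2 -1.24, SE 0.40, adjusted p = 0.0292). Manf was at 104 and 86.3 CPM in EV shNC, 47.6 and 34.7 with WT-Bmal1 (log2 -1.21, SE 0.29, adjusted p = 0.0058) and 51.9 and 48.7 with dHLH-Bmal1 (log2 -0.91, SE 0.28, adjusted p = 0.0249). Both genes belong to the 6 that moved together within pairs.
Xbp1, another of the 6, was at 17.02 and 18.3 CPM in EV shNC, 7.61 and 6.77 with WT-Bmal1 (log2 -1.29, SE 0.30, adjusted p = 0.00489) and 11.6 and 10.9 with dHLH-Bmal1 (log2 -0.64, adjusted p = 0.113). Edem1, which draws misfolded glycoproteins into ERAD, was at 51.2 and 58.3 CPM in EV shNC, 36.7 and 39.5 with WT-Bmal1 (log2 -0.52, adjusted p = 0.0288) and 33.1 and 38.4 with dHLH-Bmal1 (log2 -0.62, adjusted p = 0.00947). All of these pairs stood apart from EV shNC.
The calls of Eif2ak3 and Edem1 with WT-Bmal1 and of Syvn1 and Manf with dHLH-Bmal1 were lost in all 4 fits that left out 1 library, and Manf with dHLH-Bmal1 was also lost under DESeq2's Wald test. Eif2ak3 with dHLH-Bmal1 held in 1 of those 4, as did Creb3l2 with WT-Bmal1 and Dnajc3 with dHLH-Bmal1, described next. Manf and Syvn1 with WT-Bmal1 and Edem1 with dHLH-Bmal1 held in 2, and Xbp1 with WT-Bmal1 in 3.
The last call with WT-Bmal1 was Creb3l2, from 39.0 and 36.9 to 22.6 and 29.1 CPM (log2 -0.55, adjusted p = 0.0285). With dHLH-Bmal1 the others were Pdia4, from 268 and 266 to 186 and 183 CPM (log2 -0.52, SE 0.12, adjusted p = 0.00432), and Dnajc3 (p58IPK), a co-chaperone, from 102 and 109 to 79.5 and 81.7 CPM (log2 -0.38, SE 0.11, adjusted p = 0.0149). Hspa5 did not pass with either vector, at 1245 and 1329 CPM in EV shNC, 973 and 1203 in WT-Bmal1 and 1167 and 1280 in dHLH-Bmal1.
The 10 calls for WT-Bmal1 became 5 without WT-Bmal1 shNC replicate 2, and 4 and 6 without EV shNC replicates 1 and 2. Those for dHLH-Bmal1 became 4 and 5 without dHLH-Bmal1 shNC replicates 1 and 2 and 4 without EV shNC replicate 2.

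YUMM2.1 dHLH-Bmal1 was thus set against EV in separate library sets, without a hairpin and with shNC. The log2 fold changes were 1.02 and 0.94 for Atf6, 0.84 and 1.59 for Herpud1, -1.19 and -1.26 for Eif2ak3, and -1.19 and -0.37 for Creb3l2, the last without a call in the shNC set. Pdia4 had 0.89 without a hairpin, where its libraries ranged from 82.3 to 294 CPM, and -0.52 with shNC. For WT-Bmal1 the same sets gave 0.03 and 1.30 for Herpud1. Whether the hairpin set differed from the other was not tested.

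**Figure D4:**
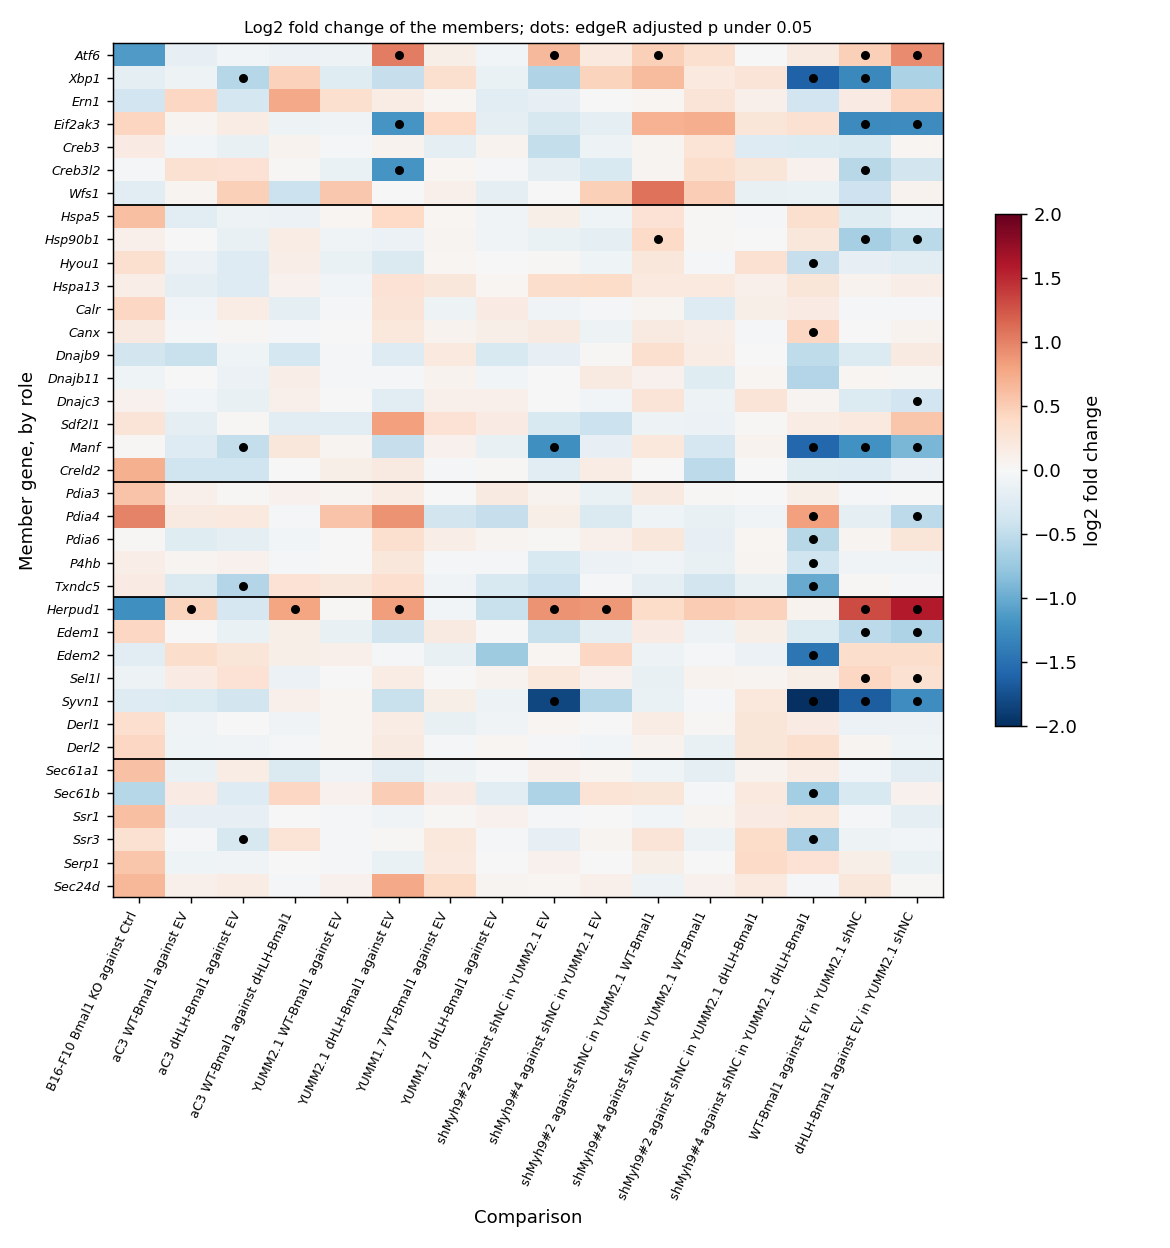
Heat map of log2 fold changes of the 37 members (rows) in the 16 comparisons within a line (columns), with a dot where edgeR's adjusted p was under 0.05. Atf6 and Herpud1 carry dots for higher levels and Manf and Syvn1 for lower levels, mostly in YUMM2.1 columns, some of which share controls.

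Knockdown of Myh9 was compared with shNC in each vector, and the comparisons with hairpin 2 and hairpin 4 in a vector share the shNC pair. With shMyh9#2 in EV cells 4 of 37 members passed, where 6.65% of genes did, 4.2% higher and 2.46% lower. Herpud1 rose from 27.1 and 20.6 to 41.4 and 47.3 CPM (log2 0.90, SE 0.17, adjusted p = 0.00283) and Atf6 from 39.96 and 37.7 to 64.7 and 56.4 (log2 0.65, SE 0.13, adjusted p = 0.00611). Manf fell from 104 and 86.3 to 35.8 and 45.6 CPM (log2 -1.22, SE 0.29, adjusted p = 0.0163) and Syvn1 from 18.6 and 14.6 to 4.74 and 4.62 (log2 -1.82, SE 0.42, adjusted p = 0.0134). None of these pairs overlapped. The count was 1 without EV shMyh9#2 replicate 1 or EV shNC replicate 2 and 2 without either of the other libraries. Herpud1 passed in 9 of 10 alternatives. Sox10 was lower with shMyh9#2 in all 3 vectors, by 0.83 in EV (adjusted p = 7.59e-05), 1.48 in WT-Bmal1 (adjusted p = 2.39e-07) and 0.90 in dHLH-Bmal1 (adjusted p = 0.003) on the log2 scale, and its part in the hairpin results was not tested.
Xbp1, the other sensors and Hspa5 did not pass: Xbp1 was at 10.54 and 12.7 CPM (log2 -0.60, adjusted p = 0.249), Eif2ak3 at 9.09 and 10.1 (log2 -0.32), Ern1 at 4.35 and 5.74 (log2 -0.17) and Hspa5 at 1456 and 1316 (log2 0.11, adjusted p = 0.607).

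With shMyh9#4 in EV cells Herpud1 was the 1 member that passed, where 1.71% of genes did and 1.45% were higher, at 35.4 and 51.1 CPM (log2 0.86, SE 0.17, adjusted p = 0.00723). It was lost without EV shMyh9#4 replicate 2 or EV shNC replicate 2. Sox10 (log2 -0.44, adjusted p = 0.0374) and Cdh5 (log2 1.92, adjusted p = 0.000485) moved with this contrast too. In WT-Bmal1 cells shMyh9#2 raised 2 members, where 4.76% of genes passed and 2.35% were higher. Atf6 rose from 52.5 and 55.3 to 83.9 and 66.1 CPM (log2 0.47, SE 0.13, adjusted p = 0.042), and Hsp90b1 from 701 and 623 to 907 and 832 (log2 0.39, SE 0.10, adjusted p = 0.025).
That count became 0 without WT-Bmal1 shMyh9#2 replicate 1 or WT-Bmal1 shNC replicate 2 and 1 without either of the others. Herpud1 was at 80.4 and 72.2 CPM there, above both shNC libraries (log2 0.37, adjusted p = 0.192), and Hspa5 had a log2 difference of 0.30 (adjusted p = 0.135). Xbp1 (log2 0.64, adjusted p = 0.267) and Eif2ak3 (log2 0.69, adjusted p = 0.327) did not pass. No member passed with shMyh9#4 in WT-Bmal1 cells or with shMyh9#2 in dHLH-Bmal1 cells, where 0.236% and 0.559% of genes did. An unadjusted p under 0.05 was reached by 4 and 5 members there, with the share of all genes at that cutoff not counted. DESeq2's Wald test called 0 in both.

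The effect of shMyh9#2 was tested between vectors. From EV to WT-Bmal1 cells it differed for 2 members, where 5.18% of genes did and 1.75% were higher: Hsp90b1 (difference of log2 fold changes 0.52, SE 0.14, adjusted p = 0.0335) and Manf (1.44, SE 0.41, adjusted p = 0.0496). Hsp90b1 was at 969 and 952 CPM in EV shMyh9#2, under its shNC pair, and Manf was at 54.5 and 41.2 CPM in WT-Bmal1 shMyh9#2, overlapping its shNC pair. Leaving out any 1 of the 8 libraries gave 0 or 1 call, with 1 only without WT-Bmal1 shNC replicate 1. Between EV and dHLH-Bmal1 cells no member passed with edgeR, where 3.29% of genes did, and DESeq2's Wald test called 2. An unadjusted p under 0.05 was reached by 7 members, with the share of all genes at that cutoff not counted. Without dHLH-Bmal1 shMyh9#2 replicate 1 there were 3.

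With shMyh9#4 in dHLH-Bmal1 cells 12 members passed, 2 higher and 10 lower, where 15.1% of genes did (6.28% higher, 8.86% lower), and shMyh9#4 replicate 1 was the shallowest library. Sox10 moved the other way than with shMyh9#2, from 22.7 and 26.1 to 45.9 and 44.5 CPM (log2 0.92, SE 0.12, adjusted p = 0.000469), and its part in these changes was not tested. Pdia4 rose from 186 and 183 to 331 and 314 CPM (log2 0.82, SE 0.12, adjusted p = 0.000976) and Canx (calnexin) from 443 and 469 to 587 and 611 (log2 0.42, SE 0.11, adjusted p = 0.0156). Manf fell from 51.9 and 48.7 to 20.01 and 14.1 CPM (log2 -1.57, SE 0.34, adjusted p = 0.00558) and Xbp1 from 11.6 and 10.9 to 4.23 and 3.13 (log2 -1.63, SE 0.37, adjusted p = 0.00761).
Syvn1 fell from 7.15 and 6.81 to 1.41 and 0.174 CPM (log2 -3.35, SE 0.65, adjusted p = 0.00321), where the shMyh9#4 libraries held 5 and 1 counts. Edem2, a relative of Edem1, fell from 10.2 and 13.3 to 7.05 and 2.09 CPM (log2 -1.44, SE 0.37, adjusted p = 0.0155) and Txndc5 from 29.4 and 23.03 to 16.9 and 9.73 (log2 -1.01, SE 0.30, adjusted p = 0.0303). All 6 members that moved together within pairs were among those that fell here.
The remaining 5 of the lower members, of which Ssr3 and Sec61b belong to the 6, had log2 fold changes of -0.69 to -0.40. The count of 12 became 1 without dHLH-Bmal1 shMyh9#4 replicate 2 and 3 without dHLH-Bmal1 shNC replicate 1. Atf6 and Herpud1 were at 88.5 and 77.7 and at 77.2 and 70.5 CPM, both overlapping their shNC pairs.

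In B16-F10, the KO was compared with Ctrl to ask what loss of Bmal1 changes. No member of 37 passed with edgeR, where 0.44% of genes did. An unadjusted p under 0.05 was reached by 8 members, with the share of all genes at that cutoff not counted. The KO libraries stood apart from each other, as the 5 members above show. Herpud1, named after its values were seen, was at 130 and 130 CPM in Ctrl and 61.5 and 50.1 in KO (log2 -1.23, SE 0.18, adjusted p = 0.0903). Atf6, likewise, was at 71.0 and 62.4 CPM in Ctrl and 34.4 and 26.8 in KO (log2 -1.13, SE 0.20, adjusted p = 0.136). Both KO values lay below both Ctrl values for each gene.
DESeq2's Wald test called these 2 members alone, where 2.97% of genes passed, with adjusted p = 4.88e-05 for Herpud1 and 0.0017 for Atf6. Hspa5 was at 1166 and 1308 CPM in Ctrl and 1653 and 2126 in KO, higher in both KO libraries (log2 0.60, adjusted p = 0.349). Xbp1 was at 46.8 and 46.9 CPM in Ctrl and at 66.2 and 16.8 in KO, on either side of Ctrl. Manf, at 115 and 106 in Ctrl and 173 and 52.0 in KO, and Syvn1, at 21.2 and 20.1 in Ctrl and 28.9 and 5.85 in KO, split the same way.
Without KO replicate 1, 20 members passed (11 higher, 9 lower), where 43.4% of genes did, and without KO replicate 2, 18 passed (16 higher, 2 lower), where 14.5% did. Of 11 members called in both, 8 had the same direction, with Atf6 and Herpud1 lower and Hspa5, Pdia3, Pdia4, Creld2, Ssr1 and Serp1 higher. Xbp1, Manf and Syvn1 had opposite directions. Leaving out a Ctrl library gave 0 calls. The fits that leave 1 library in a group assume that it varies like the others.

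The lines differed in their resting levels, with 2 libraries for each and all 40 in the fit. Line and experiment cannot be told apart in these comparisons. The B16-F10 Ctrl libraries were also deeper, at 19348395 and 19367158 counts against 11356803 and 9097676 in YUMM2.1 EV. In bulk samples a difference in the mix of cells and a difference in RNA per cell cannot be told apart. Against YUMM2.1 EV, 21 members were higher in B16-F10 Ctrl and none lower, where 21.2% of genes were higher and 46.9% passed in either direction. The members' median log2 difference was 0.56, with 30 of 37 above 0.
Sdf2l1 was at 48.8 and 35.8 CPM in B16-F10 Ctrl and 6.81 and 7.01 in YUMM2.1 EV (log2 2.61, SE 0.25, adjusted p = 1.25e-09). Herpud1 was at 130 and 130 against 36.3 and 30.3 (log2 1.96, SE 0.17, adjusted p = 7.44e-11). Pdia4 was at 464 and 403 against 82.3 and 152 (log2 1.89, SE 0.35, adjusted p = 6.48e-05).
Sec61b, a subunit of the translocon channel, was at 181 and 221 against 75.7 and 51.3 (log2 1.66, SE 0.30, adjusted p = 3.47e-05), and Ern1 at 15.6 and 12.7 against 4.81 and 4.31 (log2 1.63, SE 0.28, adjusted p = 2.37e-05). These 5 had no overlap between lines and passed in all 11 alternatives. By role, 9 of 12 chaperones, 3 of 5 isomerases, 3 of 7 sensors and transcription factors, 3 of 7 tested ERAD genes and 3 of 6 translocation and export genes were higher. Hspa5 was higher by 0.55 and Atf6 by 0.82, while Xbp1 (log2 1.03, adjusted p = 0.0415) lost its call in 6 of 11 alternatives. With the labels exchanged 20 members passed.

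YUMM1.7 EV against YUMM2.1 EV gave 14 calls, 11 higher and 3 lower, where 31.8% of genes passed, 15.3% higher and 16.5% lower. Ern1 was at 28.9 and 25.7 CPM in YUMM1.7 EV, 5.96-fold above YUMM2.1 EV (log2 2.57, SE 0.29, adjusted p = 3.33e-08). Txndc5 was at 59.8 and 74.4 CPM against 27.1 and 15.1 (log2 1.66, SE 0.29, adjusted p = 4.43e-05). Sec61b was at 146 and 149 CPM (log2 1.21), and Sec24d and Wfs1, an ER membrane protein, were higher by 1.16 and 1.48.
Creb3l2 (log2 -0.78, adjusted p = 3.79e-05), Eif2ak3 (-0.90, adjusted p = 0.0182) and Hsp90b1 (-0.35, adjusted p = 0.0451) were lower. Atf6 was higher by 0.53 and Hspa5 by 0.41 (adjusted p = 0.015). Without YUMM1.7 EV replicate 1, 9 members passed, and with the labels exchanged 13. Between aC3 EV and YUMM2.1 EV, the clone and its parent, Creb3l2 was the 1 member that passed, where 2.48% of genes did and 2% were lower, at 48.0 and 46.5 against 76.7 and 72.1 CPM (log2 -0.66, SE 0.13, adjusted p = 0.00396). That call was lost without either aC3 EV library or YUMM2.1 EV replicate 1. The line comparisons share the YUMM2.1 EV pair.

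Across the 16 comparisons within a line, 20 of 37 tested members (54.1%) passed in at least 1, close to the 49.7% of the 12136 genes tested in all 16, with 7 members called in 1 only and 18 in none, Derl3 included. Herpud1 passed in 7, each time higher, Atf6 in 5, each time higher, Manf in 5 and Syvn1 in 4, each time lower. Higher is for the first group named, and 1 call of Herpud1 was for WT-Bmal1 over dHLH-Bmal1 in aC3. Whatever the call, Herpud1 was below 0 in 4 of the 16 and Atf6 in 6, while Manf was above 0 in 6 and Syvn1 in 4. In the B16-F10 KO Herpud1 and Atf6 fell, called by DESeq2's Wald test but not by edgeR. The share of all genes passing this often was not counted. Xbp1 and Eif2ak3 each passed in 3, lower. These comparisons share controls, so the counts are not independent. Hspa5, the chaperone with the most counts, passed in none of the 16. The group means of Atf6 and Herpud1 over the 20 groups correlated with r of 0.73 and those of Atf6 and Eif2ak3 with r of -0.81, while their differences within pairs gave 0.23 and -0.02. Over all 666 pairs of members r of the group means ran from -0.81 to 0.98. That of Atf6 and Eif2ak3 was the lowest of them and was named after the values were seen. The points share lines and vectors.
Members with an ER element in the promoter window were not called in 1 direction. With dHLH-Bmal1 in YUMM2.1, 1 of 12 tested members with an element passed (Herpud1, higher), 2 of 19 without one passed, both lower, and 1 of 6 with no window. Of all genes, 13.2% passed there, 6.51% higher and 6.72% lower. With shNC, 1 of 12 with an element was higher and 3 lower with dHLH-Bmal1, where 13.9% of all genes were higher and 12.5% lower. With WT-Bmal1, 1 was higher and 2 lower, where 11.7% and 10.6% of all genes were. Whether members with an element differed from all genes was not tested. Hspa5, Calr and Canx, each with an ERSE, passed in neither of these shNC comparisons.

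Atf4, which PERK raises, was followed with a list of 24 genes that it is known to raise or that belong to its circuit. Their levels do not measure Eif2ak3 activity. This list, like those below, was chosen with earlier results of these data known, so the counts describe it and do not test it. In YUMM2.1, dHLH-Bmal1 raised 18 of 24 and lowered none (median log2 fold change 0.96), where 6.51% of all genes were higher, led by Cth (4.26), Nupr1 (3.95), Chac1 (2.51) and Trib3 (2.18), while Eif2ak3 itself fell. Atf4 rose by 0.98 (SE 0.15, adjusted p = 0.00952). With WT-Bmal1 none passed, where 0% of genes did. In the shNC set, 16 of 24 rose with dHLH-Bmal1 (median 0.76, against 13.9% of all genes higher), with Nupr1 at 2.95 and Atf5 at 1.76, and 15 rose and 1, Ppp1r15b, fell with WT-Bmal1 (median 0.52, against 11.7% higher). With shMyh9#2 in EV cells 12 rose (median 0.47, against 4.2% higher), and with shMyh9#4 3 rose (against 1.45%).
In aC3, 3 of 23 tested genes of this list rose and 9 fell with WT-Bmal1, with Ddit4 at 0.77 and Slc7a5 at -1.24, and 4 rose and 7 fell with dHLH-Bmal1, where 11.2% and 10.9% of all genes passed in either direction. In YUMM1.7 none passed with WT-Bmal1 and 1, Slc7a11, fell with dHLH-Bmal1 (log2 -0.42), where 0.138% and 0.63% of genes passed. In the B16-F10 KO 5 of 24 fell (median -0.83), where 0.44% of genes passed in either direction, led by Nupr1 (-2.73) and Atf5 (-2.18). The difference of the dHLH-Bmal1 effect from YUMM2.1 passed for 14 genes of the list in aC3 and 18 in YUMM1.7, all lower, where 5% and 5.38% of genes were lower.

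A further list of 44 ER folding, ERAD and glycosylation genes had 6 genes higher and 1 lower of 42 tested with dHLH-Bmal1 in YUMM2.1, where 13.2% of all genes passed, among them the prolyl isomerase Fkbp11 (1.36) and the isomerase Pdia5 (1.35), with Fkbp14 at -1.17. In the shNC set it had 2 higher and 10 lower with WT-Bmal1, where 22.3% of genes passed and 10.6% were lower, and 6 of each with dHLH-Bmal1, where 26.4% passed. Of 21 genes of COPII vesicles and ER to Golgi transport, 5 fell and none rose in each shNC comparison, where 10.6% and 12.5% of genes were lower, with the coat protein Sec13 at -1.30 with WT-Bmal1, and in YUMM2.1 dHLH-Bmal1 the receptor Kdelr3 alone rose (1.89). The cytosolic and mitochondrial heat shock list of 19, chaperones outside the ER, had 9 of 17 tested lower and none higher with WT-Bmal1 in aC3, where 11.2% of genes passed in either direction, led by Hsph1 (-0.67), and 7 lower with dHLH-Bmal1, where 6.09% of genes were lower. In YUMM2.1 dHLH-Bmal1 the mitochondrial Hspa9 (0.85) and Dnajb4 (0.79) rose, 2 of 17 tested, where 6.51% of genes were higher.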

How the data were processed

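RNA of 40 cultured-cell libraries was read from transcript 3′ ends (QuantSeq). Per the labels and the study's methods, the authors aligned reads with bowtie2 to the mouse transcriptome (mm10, Ensembl) and deposited RSEM estimated counts per gene as whole numbers. The Ensembl release and strand setting are not given in the sources used here. Gene IDs were paired with symbols from the reference annotation (51596 of 51789, 99.63%). CPM used TMM scaling over 40 libraries, and log2 values in plots used a pseudocount of 0.5. Each comparison was fitted with edgeR 4.0.16 in R 4.3.3 (TMM, filterByExpr, quasi-likelihood test, Benjamini-Hochberg adjustment over all genes tested, threshold 0.05): B16-F10, aC3, YUMM2.1, YUMM1.7 and hairpin libraries separately (13790 to 14848 genes), and all 40 libraries for line comparisons and differences between lines (16619 genes). The test was also run on simulated counts for 1 comparison each of YUMM2.1, aC3 and B16-F10. Those counts held no replicate effect and no spread particular to a gene. The hairpin fit and the fit of all 40 libraries were not simulated. Alternatives were DESeq2 1.42.0, size factors, no filter, a replicate block, exchanged labels, other fits and each library left out. In YUMM2.1, deviations of libraries with the same replicate number correlated in all 3 pairs of groups (r 0.21 to 0.466), so values with that number as a block are given beside the YUMM2.1 result. No label says what a number marks.

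The members and gene lists were chosen with earlier results of these data known. Members with full values are those that passed and averaged 10 counts or more, up to 5 per direction by size of change, and Atf6, Xbp1, Ern1, Eif2ak3 and Hspa5 in YUMM2.1, aC3 and shMyh9#2 comparisons. Other lists name at most 4 genes. Melanocytic, immune, endothelial and epithelial marker lists checked the cell type: Sox10 and Cdh5 were the only markers to pass within a line, no immune marker did, and no epithelial marker passed the count filter.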

Additional observations from a re-analysis of the deposited data

Results flagged for a closer look

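The effect of dHLH-Bmal1 differed between lines by a test of the difference itself (edgeR's quasi-likelihood test, difference of log2 fold changes). From YUMM2.1 to aC3 the differences were -1.05 for Atf6, 1.35 for Eif2ak3, -1.16 for Herpud1 and 1.49 for Creb3l2. From YUMM2.1 to YUMM1.7 they were -1.07 for Atf6, -1.29 for Herpud1 and 1.16 for Creb3l2. Both sets use the YUMM2.1 libraries, of which 2 have doubtful labels, and with those labels exchanged all of these passed too. The difference of Eif2ak3 was lost in 5 fits that left out 1 library. The effect of shMyh9#2 differed between WT-Bmal1 and EV cells by 0.52 for Hsp90b1 and 1.44 for Manf. The Hsp90b1 difference held in 1 of the 8 fits that left out 1 library, and the Manf difference in none of them, nor under DESeq2's Wald test or the replicate block.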

How the results depend on the processing

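The single tests followed through the alternatives were those of members chosen for full values, with none from the B16-F10 KO or from vectors within YUMM1.7. Of these, 815 kept direction and side of the threshold with all libraries kept, 26 lost significance, 9 gained it and 0 reversed while called. Leaving out 1 library, 567 kept it, 116 lost it and 5 gained it. Counts of members called moved by over 1.5 times as follows. DESeq2's Wald test gave 2 in the B16-F10 KO, 0 in aC3 WT-Bmal1 against EV, 1 in YUMM1.7 dHLH-Bmal1 and 2 for the difference of the shMyh9#2 effect between dHLH-Bmal1 and EV. No filter on low counts gave 3 in the B16-F10 KO, 2 in aC3 WT-Bmal1 against dHLH-Bmal1, 7 in YUMM2.1 dHLH-Bmal1, and 1 and 5 in YUMM1.7 WT-Bmal1 and dHLH-Bmal1. A fit of all 40 libraries gave 11 in the B16-F10 KO, 0 in each of the 3 aC3 comparisons, 8 in YUMM2.1 dHLH-Bmal1 and 1 for shMyh9#2 in WT-Bmal1 cells, and a fit of the 4 libraries compared gave 0 for aC3 EV against YUMM2.1 EV. Exchanging the doubtful YUMM2.1 labels gave 9 for dHLH-Bmal1 and 5 for the difference between YUMM1.7 and YUMM2.1. The share of all genes passing moved as well. In the B16-F10 KO it was 0.44% in the main fit, 2.97% with DESeq2's Wald test, 2.06% without the filter and 11.7% in the fit of all 40 libraries. In aC3 against EV the fit of all 40 libraries gave 2.35% for WT-Bmal1 and 0.963% for dHLH-Bmal1, where the main fit gave 11.2% and 10.9%. The cause of these moves was not tested.

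With the replicate number as a block, 2 members were called in the B16-F10 KO, 3 in aC3 WT-Bmal1 against EV, 2 in aC3 WT-Bmal1 against dHLH-Bmal1, 9 in YUMM2.1 dHLH-Bmal1 and 1 for the difference of the shMyh9#2 effect between WT-Bmal1 and EV. With the block 1.71% of all genes passed in the B16-F10 KO, 14.4% in aC3 WT-Bmal1 against EV and 2.03% in aC3 WT-Bmal1 against dHLH-Bmal1. Other counts moved by less than 1.5 times. Deviations of libraries with the same number correlated by 0.118 in B16-F10 and on average by 0.055 in aC3, -0.001 in YUMM1.7 and -0.003 in the hairpin set.

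Leaving out each library in turn, the counts ranged from 0 to 20 in the B16-F10 KO; 0 to 0, 0 to 5 and 0 to 4 in aC3 for WT-Bmal1 against EV, dHLH-Bmal1 against EV and WT-Bmal1 against dHLH-Bmal1; 0 to 0 and 2 to 3 in YUMM2.1 and 0 to 1 and 0 to 0 in YUMM1.7 for WT-Bmal1 and dHLH-Bmal1. With shMyh9#2 they ranged from 1 to 2, 0 to 1 and 0 to 0 in EV, WT-Bmal1 and dHLH-Bmal1 cells, and with shMyh9#4 from 0 to 1, 0 to 0 and 1 to 14. In shNC cells they ranged from 4 to 7 for WT-Bmal1 and 4 to 7 for dHLH-Bmal1. Against YUMM2.1 EV they ranged from 9 to 11 for YUMM1.7, 18 to 22 for B16-F10 and 0 to 1 for aC3. For differences of effects they ranged from 3 to 5 for aC3, 3 to 5 for YUMM1.7, 0 to 1 for shMyh9#2 in WT-Bmal1 and 0 to 3 in dHLH-Bmal1. Fewer libraries test with less precision. At the lowest total, 1 CPM is 3.64 counts, so members near 1 CPM there rest on few counts.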
